A study of Mus musculus with 30 samples.

Results

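The regions described here were open on the deposited ATAC-seq lists of both spermatogonial stages and of meiotic pachytene spermatocytes, and were absent from the list of round spermatids. They numbered 8790 of 113894 autosomal union regions. They were found by pooling the peaks of the 4 lists on chromosomes 1 to 19, merging peaks that overlapped by at least 1 bp, and keeping merged regions that held a peak of each of the first 3 stages and none of the fourth. They were thus chosen by the presence or absence of listed peaks, and no test was made on those listings.

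The germ cells came from testes of C57BL/6 mice. The stages were primitive type A spermatogonia (PriSG-A, 3 libraries, day 6 after birth), SG-A or type A spermatogonia (3 libraries, day 8), pachytene spermatocytes (pacSC, 2 libraries, adult) and round spermatids (rST, 2 libraries, adult). No mutation or treatment is named for any of the groups. Each stage had 1 peak list for all its libraries, so replicate error could not be measured and stages were not tested against each other. The labels do not say whether the libraries of a stage came from separate animals. The lists name no gene, so the labelled cell types were not checked against markers.

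Spermatogonia are the mitotic cells at the base of the seminiferous tubule. Those committed to differentiate enter meiosis, and in pachytene the homologous chromosomes are fully paired and held by the synaptonemal complex. The divisions that follow yield haploid round spermatids, which later replace most histones with protamines. ATAC-seq reads where the transposase Tn5 can enter chromatin, and such sites typically lie at promoters and enhancers. In bulk cells, fewer cells with an open site and weaker opening in each cell cannot be told apart.

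The autosomal list of PriSG-A held 54413 peaks and that of SG-A 85773, while pacSC had 32902 and rST had 6233, so the stage that the regions lack had the shortest list. Read depth is unknown, and absence from the rST list describes that list and is not a measured loss of accessibility. Of all union regions 95.7% lacked an rST peak, as did 84.8% of those with a pacSC peak, 95.9% of those with an SG-A peak and 92.6% of those with a PriSG-A peak. Of the 11977 regions with a peak of all 3 earlier stages, the regions studied made up 73.4% (95% Wilson interval 72.6 to 74.2). The other 3187 were listed in all 4 stages. With each list limited to its 6233 peaks of highest signal value, the length of the rST list, the share was 38.6% and the regions numbered 1202. The regions were 7.72% of all union regions, 28.7% (28.2 to 29.2) of the regions in both spermatogonial lists and 30.3% (29.8 to 30.8) of those with a pacSC peak. All intervals given here cover counting error only and treat neighbouring regions as independent.

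In the spermatogonial lists the regions were intermediate in strength between those listed in all 4 stages and the 18529 listed in both spermatogonial stages only, which have no pacSC peak by definition. Strength was read from the −log10 q and the signal value that the authors' deposited lists give each peak, where the signal value is an area that grows with peak width. For the strongest peak of each region the median −log10 q in PriSG-A was 4.06, against 5.78 in the regions of all 4 lists and 2.55 in the spermatogonia-only regions. In SG-A these medians were 7.84, 10.5 and 3.63. In pacSC the regions had a median of 3.22, against 5.23 in the regions of all 4 lists. The middle 50% of the regions ran from 3.10 to 5.07 for PriSG-A, from 5.56 to 9.52 for SG-A and from 2.44 to 4.35 for pacSC, so the sets overlapped widely. This order follows in part from the choice of regions, since stronger peaks were listed at more stages.

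**Figure D1:**
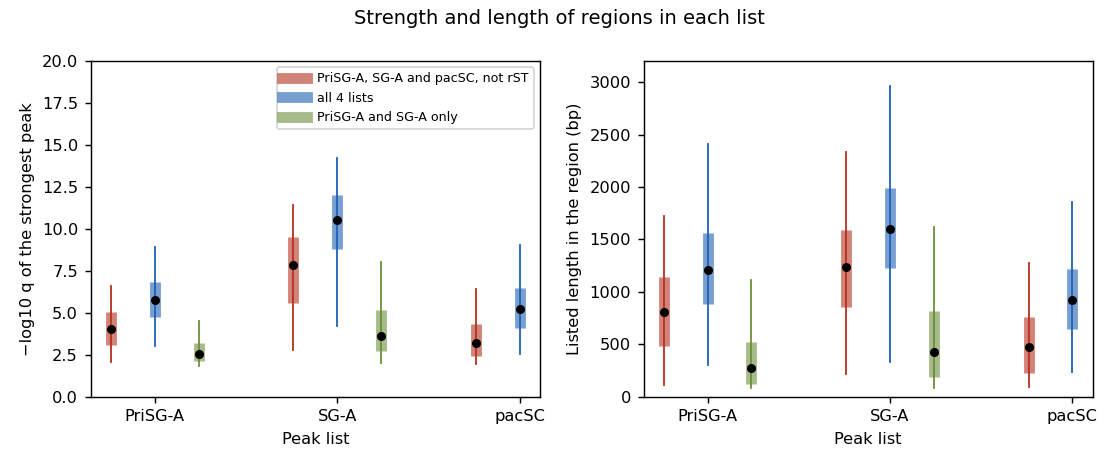
−log10 q of the strongest peak (left) and listed length in bp (right) in the PriSG-A, SG-A and pacSC lists, for the 8790 regions not listed in rST, the 3187 regions of all 4 lists and the 18529 regions of both spermatogonial lists only. Black points are medians, thick bars the middle 50% of regions and thin lines the 5th to 95th percentiles. In both spermatogonial lists the regions not listed in rST lie between the other sets, and in pacSC they lie below the regions of all 4 lists.

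Strong peaks were present among them at every stage. A −log10 q of at least 5 was reached in PriSG-A by 2309 of the regions, or 26.3% (25.4 to 27.2), where 9.4% of all autosomal PriSG-A peaks reached it. In SG-A 6988 reached it, or 79.5% (78.6 to 80.3), where 18.2% of all SG-A peaks did. In pacSC 1346 reached it, or 15.3% (14.6 to 16.1), where 10.8% of all pacSC peaks did. A region counts as reaching the threshold with any of its peaks, so these shares are over regions and the background is over peaks. All 3 lists passed that threshold in 587 regions, or 6.68% (6.17 to 7.22). In the regions of all 4 lists the corresponding number was 1417 of 3187, or 44.5% (42.7 to 46.2).

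The regions were wide in SG-A and narrower in PriSG-A and pacSC. The union region spanned a median of 1272 bp, from 88 bp to 6606 bp. No scaling between lists is stated, and listed lengths depend on each list's depth and peak calling. The listed length within a region had a median of 1235 bp in SG-A, 807.5 bp in PriSG-A and 472 bp in pacSC. A single SG-A peak spanned the whole union region in 5407 regions, or 61.5% (60.5 to 62.5). More than 1 peak lay in the region in 31.5% (30.6 to 32.5) of cases in PriSG-A, 25.8% (24.9 to 26.8) in pacSC and 6.38% (5.89 to 6.91) in SG-A.

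The pacSC peaks covered a median of 43.2% of the length that SG-A covered in the same region, with a middle 50% of 24.1% to 65.1%. In the regions of all 4 lists this median was 61.7%. The pacSC length exceeded the SG-A length in 784 of the 8790 regions, or 8.92% (8.34 to 9.53), close to the 8.88% (7.94 to 9.92) among regions of all 4 lists. Of those 784 regions, 41.3% (37.9 to 44.8) lay in the last 10 Mb of a chromosome, against 12.9% (12.2 to 13.7) of the rest. The corresponding shares among regions of all 4 lists were 31.8% (26.7 to 37.4) and 8.61% (7.64 to 9.68).

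The highest points of the peaks lay close together across stages. This follows in part from the choice of regions, since peaks had to overlap to be merged. The median union width was 1272 bp, and no distance for peaks placed at random was computed. Summits of the strongest PriSG-A and SG-A peaks of a region were a median of 57 bp apart. The SG-A and pacSC summits were 80 bp apart and the PriSG-A and pacSC summits 88 bp. Within 50 bp lay 47.6%, 39.0% and 36.0% of these pairs, and within 500 bp 96.8%, 95.1% and 94.6%. In the regions of all 4 lists the medians were 39 bp, 65 bp and 73 bp in the same order. Summits fell in the central 50% of the union region in 84.5% of cases for PriSG-A, 86.2% for SG-A and 84.1% for pacSC.

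Signal values ranked the regions alike in both spermatogonial lists and less alike in pacSC. Across the 8790 regions, which share a library set per list and whose signal values all grow with width, Spearman's rho was 0.83 between PriSG-A and SG-A. It was 0.40 between SG-A and pacSC and 0.34 between PriSG-A and pacSC. Of the 879 regions in the highest 10% by SG-A signal value, 482, or 54.8% (51.5 to 58.1), were also in the highest 10% by PriSG-A. Of the highest 10% by pacSC, 231, or 26.3% (23.5 to 29.3), were also in the highest 10% by SG-A, and 214, or 24.3% (21.6 to 27.3), in that by PriSG-A.

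The regions were denser towards both ends of the autosomes. In mouse autosomes coordinates start at the centromere, and the opposite end is the distal one. The distal zone is the last 10 Mb before the last listed peak of a chromosome, and the centromeric zone the 10 Mb after the first. The distal zones held 1359 of the regions, or 15.5% (14.7 to 16.2), at 2.14 times the density elsewhere (95% Poisson interval 2.02 to 2.27). Of all union regions 13.5% (13.3 to 13.7) lay there, at a ratio of 1.83 (1.80 to 1.86). The ratio was 1.40 (1.25 to 1.56) for regions of all 4 lists and 0.867 (0.819 to 0.918) for spermatogonia-only regions. For all union regions with a pacSC peak it was higher, at 4.37 (4.25 to 4.48), and for all with an SG-A peak it was 1.39 (1.36 to 1.42).

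The centromeric zones held 994 of the regions, or 11.3%, at a density ratio of 1.49 (1.40 to 1.59). Of all union regions 8.78% (8.61 to 8.94) lay there, at 1.13 (1.10 to 1.15). Regions of all 4 lists had a ratio of 0.730 (0.630 to 0.846) over 10 Mb, while over 5 Mb it was 0.832 (0.685 to 1.01) and over 20 Mb 0.938 (0.851 to 1.03). The spermatogonia-only regions had 1.20 (1.14 to 1.26), and all union regions with a pacSC peak 1.27 (1.22 to 1.32). At the centromeric end the regions studied were therefore above the pacSC list as a whole, and at the distal end below it. The centromeric ratio of the regions was 1.32 (1.23 to 1.42) without chromosome 19. It was 1.34 (1.23 to 1.45) when each 100 kb window counted once. Both intervals overlap that of the full pacSC list, which was not recomputed in these ways. The order of the ends changed with lists of equal length, where the centromeric ratio was 2.92 (2.54 to 3.36) and the distal 1.81 (1.53 to 2.14). With a −log10 q of 5 or more the ratios were 2.47 (2.19 to 2.78) and 2.32 (2.05 to 2.62), with overlapping intervals.

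By distance from the distal end, 10.6 regions per Mb lay within 1 Mb, 8.63 between 1 and 2 Mb, 5.99 between 5 and 10 Mb and 3.74 between 20 and 40 Mb. From the centromeric end it was 8.63 in the first 1 Mb, 10.1 between 1 and 2 Mb, 5.07 between 2 and 5 Mb and 3.67 between 5 and 10 Mb. Relative to the set's own autosomal mean, the value in the first 1 Mb was 2.37 (2.03 to 2.76) for these regions and 1.79 (1.34 to 2.40) for regions of all 4 lists, with overlapping intervals. Spermatogonia-only regions had 2.03 (1.81 to 2.27) there, which also overlaps the interval of these regions. The value between 1 and 2 Mb from the centromeric end was 2.78 (2.41 to 3.20) for these regions and 0.598 (0.361 to 0.992) for regions of all 4 lists. For spermatogonia-only regions it was 1.54 (1.35 to 1.76). In the last 1 Mb the value was 2.91 (2.53 to 3.34) for these regions and 1.79 (1.34 to 2.40) for regions of all 4 lists.

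**Figure D2:**
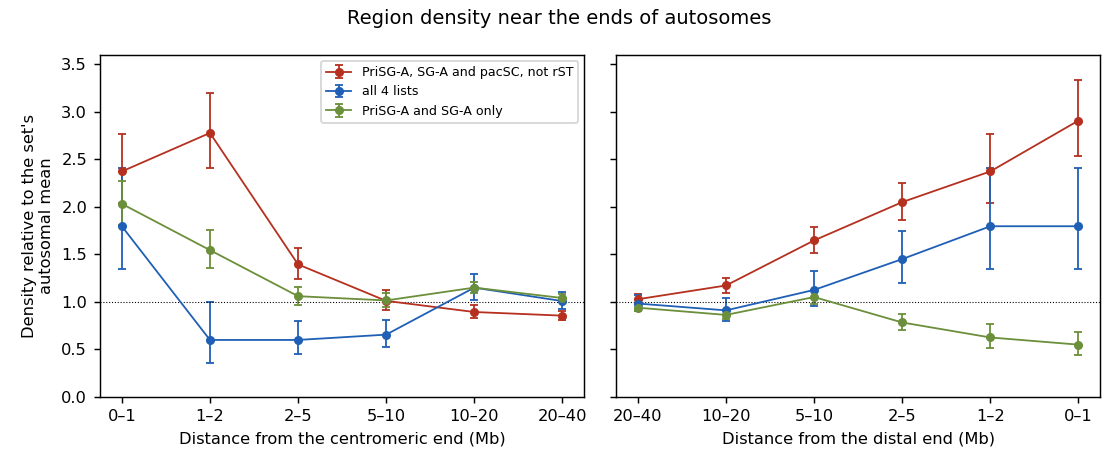
Density of regions by distance from the centromeric end (left) and the distal end (right) of the autosomes, in Mb, divided by each set's mean density over all autosomes. Points are the 3 sets of regions and bars 95% Poisson intervals. Regions not listed in rST rise to 2.78 near the centromeric end and 2.91 in the last 1 Mb. Spermatogonia-only regions rise to 2.03 in the first 1 Mb and fall to 0.549 in the last 1 Mb. Regions of all 4 lists stand at 1.79 in both.

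The regions at the chromosome ends were unevenly distributed over the range of signal values in each list. In the highest 10% of the 8790 regions by pacSC signal value, 390 of 879, or 44.4% (41.1 to 47.7), lay in a distal zone and 245, or 27.9% (25.0 to 30.9), in a centromeric zone. Both zones together held 72.2% (69.2 to 75.1) of that 10%, against 26.8% (25.9 to 27.7) of all the regions and 19.8% (17.3 to 22.6) of the lowest 10%. Ranked by SG-A signal value, the distal zones held 7.96% (6.35 to 9.94) of the highest 10% and 21.5% (18.9 to 24.3) of the lowest. Ranked by PriSG-A they held 6.83% (5.34 to 8.69) and 25.1% (22.4 to 28.1). The centromeric zones held 21.4% (18.8 to 24.2) of the highest 10% by PriSG-A, or 188 regions, and 97 regions of the lowest. By SG-A they held 14.0% (11.9 to 16.4) and 17.4% (15.0 to 20.1).

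Distal regions thus ranked low among the regions in spermatogonia and high in pacSC. Among the 8790 regions, ranked from 0% to 100%, those of the distal zones had a median rank of 34.3% by PriSG-A, 36.5% by SG-A and 71.2% by pacSC. The upper 50% by pacSC held 65.5% (62.9 to 68.0) of them, and the upper 50% by SG-A held 36.8% (34.3 to 39.4). Centromeric regions had median ranks of 54.7%, 46.2% and 65.7% in the same order, and regions at neither end 52.6%, 53.3% and 45.6%. In the distal zones pacSC covered a median of 67.8% of the SG-A length, in the centromeric zones 58.6%, and at neither end 37.8%. In the last 1 Mb the median was 97.0%, and for regions of all 4 lists it was 103% there.

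**Figure D3:**
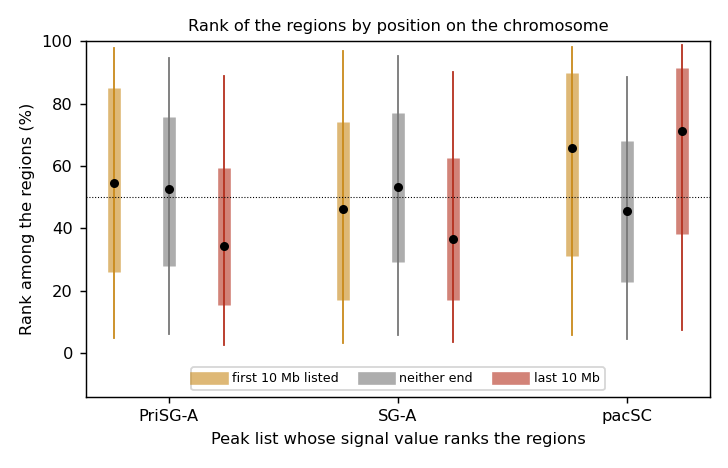
Rank in percent of each of the 8790 regions among themselves, by the signal value of its strongest peak in the PriSG-A, SG-A and pacSC lists, for regions in the first 10 Mb listed, the last 10 Mb and neither end. Black points are medians, thick bars the middle 50% and thin lines the 5th to 95th percentiles. The distal regions move from a median of 36.5% in SG-A to 71.2% in pacSC.

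The share absent from rST fell as the pacSC signal value rose, and it fell later at the chromosome ends. The 11977 regions of the 3 earlier stages were divided into 10 equal groups by pacSC signal value. Regions without an rST peak made up 95.2% (93.8 to 96.2) of the lowest group, 83.1% (80.9 to 85.2) of the fifth and 34.6% (31.9 to 37.3) of the highest. Away from both ends these shares were 94.4% (92.8 to 95.7), 80.9% (78.4 to 83.3) and 10.6% (8.18 to 13.7), the last on 52 of 490 regions. In the distal zones they were 97.3% (92.4 to 99.1), 94.9% (89.3 to 97.6) and 50.1% (45.6 to 54.6), the last on 232 of 463 regions. In the centromeric zones they were 99.1% (95.3 to 99.8), 93.6% (85.9 to 97.2) and 53.1% (46.8 to 59.2), the last on 130 of 245 regions. In each of the 10 groups the share was higher at either end than away from them, with intervals that overlapped in some of the lower groups. The ends also differed in SG-A and PriSG-A ranks, and their part in this difference was not tested.

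**Figure D4:**
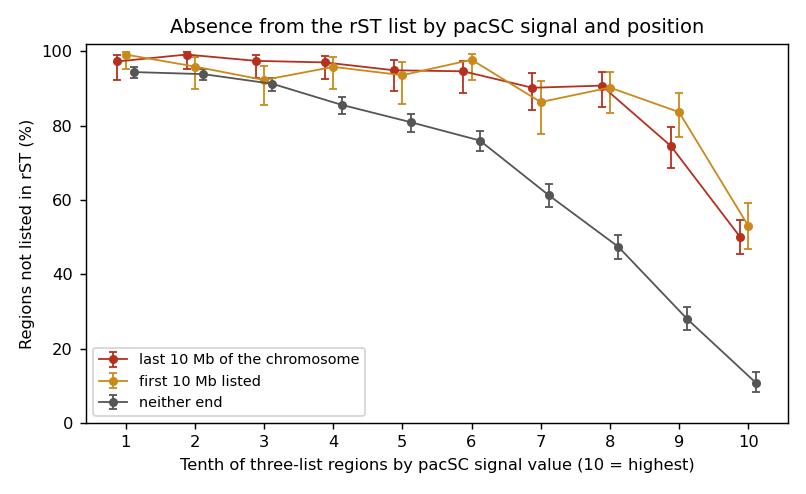
Share in percent of regions with PriSG-A, SG-A and pacSC peaks that had no rST peak, by 10 equal groups of pacSC signal value, for regions in the last 10 Mb, the first 10 Mb listed and neither end. Bars are 95% Wilson intervals. In the highest group the share was 50.1% and 53.1% at the ends and 10.6% elsewhere.

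Of the 414 regions without an rST peak in that highest group, 362, or 87.4% (83.9 to 90.3), lay in an end zone. Of the 784 regions of all 4 lists in the same group, 346 did, or 44.1% (40.7 to 47.6). The distal density ratio there was 14.9 (12.3 to 18.1) for the former and 4.89 (4.19 to 5.70) for the latter. In the lowest group it was 1.23 (1.005 to 1.49) for the former. For the latter it was 0.639 (0.200 to 2.04), on 3 of 58 regions. The distal ratio was thus higher in the highest group than in the lowest for both sets.

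With the groups drawn by SG-A signal value the order was different. In the highest SG-A group, 17.6% (11.5 to 26.2) of distal regions had no rST peak, against 33.1% (30.4 to 36.0) outside the distal zones. In the next to lowest SG-A group the shares were 93.8% (90.4 to 96.1) and 84.7% (82.2 to 86.9). In the centromeric zones the share in the highest SG-A group was 45.6% (37.5 to 54.0). The higher share at the distal end was therefore seen at matched pacSC signal value and not across all groups of SG-A signal value, while the centromeric share was above that of all regions in each group of either list.

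The chromosomes differed in how many of the regions they held. The density ran from 2.07 per Mb on chromosome 1 to 5.75 on chromosome 19, with 5.34 on chromosome 11. Regions of all 4 lists ran from 0.944 per Mb on chromosome 7 to 1.61 on chromosome 10. Of regions with peaks of the 3 earlier stages, 58.1% (54.1 to 62.1) on chromosome 3 and 58.8% (55.0 to 62.4) on chromosome 1 had no rST peak, against 83.4% (80.6 to 85.9) on chromosome 11 and 82.7% (79.9 to 85.1) on chromosome 7. Over 19 chromosomes, which share the 4 lists, the density of the regions had a Pearson's r of −0.50 and a Spearman's rho of −0.31 with chromosome span. For regions of all 4 lists r was −0.03 and rho was 0.04.

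The distal density ratio lay above 1 with its whole interval on 14 of 19 chromosomes and below 1 on chromosome 19. It ran from 0.563 (0.397 to 0.799) on chromosome 19 to 4.37 (3.62 to 5.28) on chromosome 4, with a median of 2.12. The interval included 1 on chromosomes 6, 13, 17 and 18. As a point value the distal ratio was above that for regions of all 4 lists on 15 of 19 chromosomes. By interval it was wholly above on chromosomes 2, 4, 5 and 8 and wholly below on chromosome 19. Elsewhere the intervals overlapped. The centromeric ratio had its whole interval above 1 on 11 chromosomes and below 1 on chromosomes 9 and 14. It was highest on chromosome 19, at 4.41 (3.56 to 5.47), where 160 of 335 regions lay in that zone. The rest of a chromosome includes its opposite end zone, so these 160 regions also lower the distal ratio of chromosome 19. Without chromosome 19 the centromeric ratio over the other chromosomes was 1.32.

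**Figure D5:**
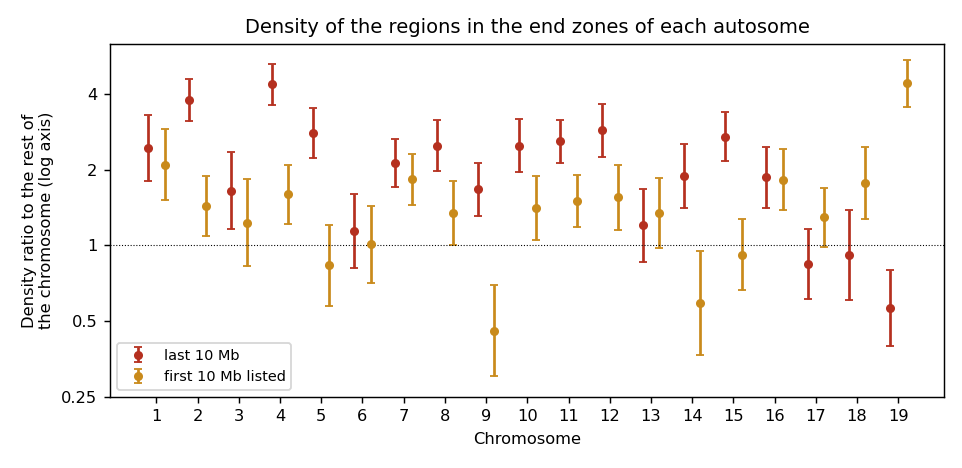
Density of the 8790 regions in the last 10 Mb and in the first 10 Mb listed of each autosome, relative to the rest of that chromosome, on a log axis. Bars are 95% Poisson intervals and the dotted line marks equal density. The distal ratio was highest on chromosome 4, at 4.37, and the centromeric ratio on chromosome 19, at 4.41.

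The regions that stood highest in all 3 lists at the same time lay mostly near centromeric ends. They were ranked by the lowest of their 3 within-list percentiles of signal value. The first lay on chromosome 14 at 17196269 to 17199290, with signal values of 6513 (PriSG-A), 13966 (SG-A) and 5653 (pacSC). The lowest of its 3 within-list percentiles was 99.6. The second lay on chromosome 7 at 3595707 to 3598030, with 7522, 13075 and 5095, and the third on chromosome 12 at 3308596 to 3310871, with 5519, 10572 and 5221. The fourth, on chromosome 7 at 5011816 to 5014813, had 4390, 13620 and 5504.

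The fifth to ninth lay on chromosome 13 at 9762272, chromosome 5 at 3801995, chromosome 12 at 8505095, chromosome 7 at 6679728 and chromosome 1 at 3660420, by their first base. The one on chromosome 7, 4110 bp wide, had the highest signal values of the 10 in both spermatogonial lists, with 11025 in PriSG-A and 22410 in SG-A, and had 4067 in pacSC over 3 peaks. By −log10 q the second of the 10 was higher in both, with 10.5 and 15.3 against 8.88 and 12.7. The last of the 10 lay at a distal end, on chromosome 10 at 128240541 to 128243487, 1.74 Mb from the last listed peak. It was 15.1 kb from an rST peak, and the other 9 were between 68.6 and 707 kb from one. Of the 10, 8 lay in a centromeric zone and 1 in a distal zone. More widely, of the 587 regions that passed a −log10 q of 5 in all 3 lists, 34.6% (30.8 to 38.5) lay in a centromeric and 21.3% (18.2 to 24.8) in a distal zone. For regions of all 4 lists under the same threshold these shares were 10.1% (8.63 to 11.8) and 14.7% (12.9 to 16.6).

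The regions of highest pacSC signal value lay at distal ends. The highest was on chromosome 11 at 120684486 to 120688204, with 1793 (PriSG-A), 8855 (SG-A) and 10021 (pacSC), and its pacSC −log10 q of 10.8 was also the highest of all. It lay 1.16 Mb from the last listed peak. The one on chromosome 7 at 150480735 to 150483263 had 635 and 2777 in the spermatogonial lists and 8999 in pacSC, where 1 peak covered all 2529 bp. The one on chromosome 15 at 103069486 to 103071756 had 3376, 10863 and 8135.

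On chromosome 2 a region at 180627185 to 180629981 had 81.8 and 2913 in PriSG-A and SG-A, and 8003 in pacSC. Its PriSG-A value stood at the 49.5th percentile of that list and its pacSC value at the 99.9th. On chromosome 6 a region at 149048993 to 149050946 had 2629, 6831 and 7257. These 5 lay between 0.424 and 2.04 Mb from the last listed peak of their chromosomes. By pacSC −log10 q the highest 5 also held the regions on chromosomes 11 and 15, followed by chromosome 4 at 154734997 (10.5), chromosome 9 at 123437561 (10.5) and chromosome 2 at 179176333 (10.3), by their first base. Each of these 3 was within 2.57 Mb of the last listed peak.

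The 5 widest regions had broad SG-A peaks, and 4 of them had pacSC signal values below the median of 296 for all the regions. The widest, on chromosome 5 at 58105252 to 58111857, was covered by 6606 bp of SG-A peak and 5991 bp of PriSG-A peaks, with 100 bp in pacSC. Its signal values were 9774 (PriSG-A), 20873 (SG-A) and 45.2 (pacSC). On chromosome 17 a region at 34253879 to 34260175 had the highest SG-A signal value of all 8790, at 25859, and 165 in pacSC. On chromosome 10 a region at 79610043 to 79616238 had 19158 in SG-A and 32.3 in pacSC, and on chromosome 7 one at 16894228 to 16900171 had 15584 and 24.9. The fifth, on chromosome 17 at 71197604 to 71203344, held 5 pacSC peaks over 2281 bp, above the 95th percentile of 1279 bp for all the regions, with 11425 in SG-A and 669 in pacSC. None of these 5 lay in an end zone.

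Most of the regions were far from any rST peak. The nearest rST peak was a median of 198 kb away, and that of the spermatogonia-only regions 187 kb. An rST peak lay within 10 kb of 312 regions, or 3.55% (3.18 to 3.96), against 5.69% (5.36 to 6.03) of spermatogonia-only regions. Within 1 kb lay 53, or 0.603% (0.461 to 0.788), and within 500 bp 29. In the distal zones the median was 134 kb. Among the highest 10% by pacSC signal value, the 5 farthest from an rST peak were 5.16, 3.71, 3.62, 2.78 and 2.54 Mb from it. Of these, 4 lay on chromosome 9 between 61969545 and 67608538, with pacSC signal values of 1879 to 2933. The other, on chromosome 7 at 20299772 to 20302346, had 5641 (PriSG-A), 11954 (SG-A) and 2827 (pacSC).

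Few regions lay at the rule's edge as measured by distance, with 53 of the 8790 within 1 kb of an rST peak. Distance is not the only edge, since the choice also depended on which peaks were listed. The regions numbered 1889 when peaks below a −log10 q of 5 were dropped, and 1202 when the lists were of equal length. Just outside an rST peak were regions starting at 127072618 on chromosome 1, 58765536 on chromosome 7 and 99951523 on chromosome 8, with 121, 130 and 159 bp between them and the rST peak. Their pacSC signal values were 115, 153 and 175. Just inside the set of all 4 lists were regions on chromosome 10 at 92915374, chromosome 13 at 84486804 and chromosome 5 at 38610863, which shared 48, 49 and 53 bp with an rST peak. In each case this was the whole rST peak, with signal values of 21.3, 23.6 and 22.5, near the lowest value of 20.0 in that list. Over the 3187 regions of all 4 lists the median shared length was 247 bp.

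The regions were unevenly spread along the chromosomes. Another region of the same kind lay a median of 44.3 kb away and within 100 kb for 71.4%. For the regions of all 4 lists, which are fewer, these values were 165 kb and 36.1%, and for the more numerous spermatogonia-only regions 17.5 kb and 84.0%. Of 2417 windows of 1 Mb with any union region, 1898 held at least 1 of the regions, with a median of 3, and 377 windows held 50% of them. At least 20 lay in 27 windows, which held 647, or 7.36%, and 8 of these windows were in distal zones. Dense windows in centromeric zones were not counted. The share of all windows in distal zones was not computed, so the 8 cannot be read as a distal trait.

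The densest window was on chromosome 19 from 4000001 to 5000000, with 35 of the regions and 1 of all 4 lists. The next were on chromosome 11 from 120000001 to 121000000 with 34, and on chromosome 19 from 5000001 to 6000000 with 32. On chromosome 9 from 108000001 to 109000000 there were 27 and no rST peak. By contrast, on chromosome 8 from 19000001 to 20000000, 26 of the regions lay beside 22 regions of all 4 lists. On chromosome 10 between 79 and 81 Mb there were 49 among 506 union regions. In 453 of the 1898 windows with at least 1 of the regions, no region was listed in rST. These windows held 2314 of the regions, or 26.3%. The share of all union regions in such windows was not computed, so 26.3% cannot be read as particular to these regions.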

How the data were processed

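The authors deposited 1 ATAC-seq peak list per stage, and each library's label points to its stage's list. The list of PriSG-A has a garbled name and was assigned by its first letters and by exclusion. The submitters' processing notes name SAMtools, Bowtie and Bowtie2 2.2.5 but give no role for them. Not given in the sources used here are the peak caller, how replicates were combined, any Tn5 shift and any filter for repeated sequence. Each deposited peak has a score, a signal value (an area over the peak), a −log10 q and a summit. The deposited score equals 1000 times signal value over width, capped at 1000, for 100% of peaks within a tolerance of 1. No scaling across lists is stated, so signal values were compared between lists only as ranks. The −log10 q values, and the threshold of 5 on them, were used as given in each list and depend on its unknown depth. Signal values of named regions stand side by side as given, and listed lengths were compared unscaled.

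The processing notes name mm10, but peaks ran past the last gene of the GRCm38 table on 10 chromosomes out of 21, the farthest (7.2 Mb) on chromosome 7. Their assembly is therefore unknown here. Positions are 1-based: the first base is the start in the files plus 1, and the end is as the files give it. They were not converted to another assembly. No gene or sequence is therefore given, and the planned sequence and annotation results were left out.

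Merging, overlaps and shares were computed in Python 3.11.15 with pandas 2.3.3, numpy 2.4.6 and scipy 1.17.1, and tested on simulated lists of known membership. The strongest peak of a region is the one of highest signal value. Wilson and Poisson intervals are at 95%. Regions named are the 10 highest by their lowest within-list percentile, the 5 highest by pacSC signal value, by −log10 q and by width, the 5 farthest from rST within the highest 10% by pacSC signal value, and 3 on each side of the rule's edge. The regions, comparisons and naming rule were chosen with earlier results of these data known. The centromeric zone, and the end zones among the highest 10%, were added after seeing the values. Depth per library is unknown. The Hi-C, ChIP-seq and input samples were not analysed here.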

Additional observations from a re-analysis of the deposited data

Results flagged for a closer look

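Regions of the same pattern also occurred on the sex chromosomes, which the autosomal rule leaves out. On X there were 370, or 78.6% (95% Wilson interval 74.6 to 82.0) of the 471 regions with peaks of the 3 earlier stages, at 2.26 per Mb against 3.64 per Mb on autosomes. Their median width was 1028.5 bp. On Y there were 32 of 50, or 64.0% (50.1 to 75.9), within a listed span of 2.77 Mb, with a median width of 384.5 bp. Both counts were above 3, the limit that a count of 0 allows. That limit is fixed and is not a background rate for these lists. Densities were not adjusted for the number of copies of a chromosome in a cell.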

How the results depend on the processing

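Of 33 alternative values (chromosomes left out not counted), 8 stayed within the main interval or within 1.5 times the main count, and 25 moved. A reversal was defined only for the density ratios, as a change from above to below 1, and none of them reversed. The counts, shares, widths and percentiles could only stay or move. With all 4 lists limited to a −log10 q of 5 or more there were 1889 such regions, 94.3% of the regions of the 3 earlier stages, with a median width of 1741 bp, a median pacSC percentile of 95.4, 0.212% within 10 kb of an rST peak, a distal ratio of 2.32 and a centromeric ratio of 2.47. With lists of equal length (6233 peaks each) there were 1202, or 38.6%, and the same quantities were 1700 bp, 90.6, 1.91%, 1.81 and 2.92, against 71.1 for the percentile in the full list. Requiring a reciprocal overlap of 50% of a pacSC peak with each spermatogonial list left 2275 pacSC peaks without an rST peak, or 54.4%. Counting an rST peak within 1000 bp as listed moved only the share within 10 kb, to 2.96%. The distal and centromeric ratios were 2.41 and 1.93 with zones of 5 Mb, 1.75 and 1.20 with 20 Mb, and 1.80 and 1.34 when a 100 kb window counted as 1. The share of the highest 10% in either end zone was 67.3% ranked by pacSC signal value per bp and 67.4% when a 100 kb window counted as 1. Leaving out each chromosome in turn gave distal ratios of 2.02 to 2.24, centromeric ratios of 1.32 to 1.58 and shares of 69.6% to 73.9%. The cause of these moves was not tested, beyond fewer peaks entering the shorter lists. The alternatives on the centromeric zone, the highest 10% and the chromosomes left out were chosen after seeing the data. No paired analysis was possible because replicates of a stage share 1 list, and for that reason no replicate could be left out. Unknown depth limits every statement on absence from rST.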
